A study of Homo sapiens with 18 samples.

Results

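HT-29 cells, a human colon cancer line, were treated with 2.5 µM erastin (ER) for 24 h and set against untreated HT-29 cells, with 3 arrays in each group. These 6 arrays belong to a series of 18, which also holds HT-29 cells after 4 h of ER and the colon cancer line HCT116 under the same 3 conditions. ER was dissolved in DMSO and the controls were described as untreated, and neither DMSO nor the hour of collection was given for the control arrays, so that ER, its vehicle and 24 h of further growth cannot be told apart. The methods describe 3 independent experiments, and the labels number the arrays of a group 1 to 3 without tying a number to an experiment. The comparison was made over 35528 transcripts that the platform's annotation gives to a single gene (33578 genes), of 135750 transcripts that were tested. Each value is a normalized signal on the log2 scale as deposited, and each change is the mean of the ER arrays minus the mean of the control arrays.

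ER blocks the cystine/glutamate exchanger whose light chain is SLC7A11. Cystine is the main outside source of cysteine, which is needed for glutathione, and GPX4 uses glutathione to detoxify lipid peroxides. When that repair fails, iron-dependent peroxidation of membranes can kill the cell, which is called ferroptosis. Cells also have sensors for a shortage of amino acids. The kinase GCN2 responds to uncharged tRNA and phosphorylates the initiation factor eIF2, after which general translation slows while the mRNA of the transcription factor ATF4 is translated. ATF4 activates genes of amino acid supply and tRNA charging, together with genes that feed back on the stress. In parallel, low MTORC1 activity restrains ribosome production and growth, and FOXO factors favour quiescence.

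The cell type was checked first. EPCAM, an adhesion molecule of epithelium, lay between 14.27 and 15.6 on the 6 arrays, whereas the array medians lay between 5.45 and 5.54. The replicate 1 arrays of both groups stood apart in intestinal markers. LYZ, encoding lysozyme, had 17.48 on the 24 h array of replicate 1 and 10.5 and 11.77 on those of replicates 2 and 3, against 16.94, 10.39 and 11.17 in the controls. KRT20, a keratin of differentiated gut cells, had 12.72, 8.32 and 9.42 in replicates 1, 2 and 3 at 24 h, against 14.81, 9.07 and 8.49 in the controls. CEACAM6, a surface glycoprotein of gut epithelium, had 9.65, 8.04 and 8.24 at 24 h, against 13.06, 8.32 and 8.61 in the controls. Replicate 1 was thus the highest of its group for each of these 3 genes. CDX2, a transcription factor of the intestine, ran the other way, with 8.001, 9.02 and 9.36 at 24 h, against 8.20, 8.59 and 9.07 in the controls, and was lowest in replicate 1 of both groups. Over 24 intestinal markers the mean signal was 9.53, 8.23 and 8.61 at 24 h, against 10.12, 8.14 and 8.32 in the controls, and none of them was called. Markers of fibroblasts (8 measured, mean 6.01 to 6.27 at 24 h, against 6.03 to 6.13) and endothelium (6 measured, mean 5.38 to 5.51 at 24 h, against 5.31 to 5.51) differed little between groups. In the fibroblast list only FAP passed the thresholds given below (5.75, 6.16 and 5.93 at 24 h, against 5.15, 4.86 and 4.90), near the array medians. FAP did not pass without 24 h replicate 2 (unadjusted p = 0.0146), 24 h replicate 3 (unadjusted p = 0.00908), control replicate 2 (unadjusted p = 0.0125) or control replicate 3 (unadjusted p = 0.0115). Leukocyte markers (7 measured, LYZ among them) had means of 6.98 to 7.68 at 24 h, against 6.70 to 7.60 in the controls. Genes named by rule that lose their call in replicates 2 and 3 alone are listed below, and list counts that differ there are given beside those of all 3.

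**Figure D1:**
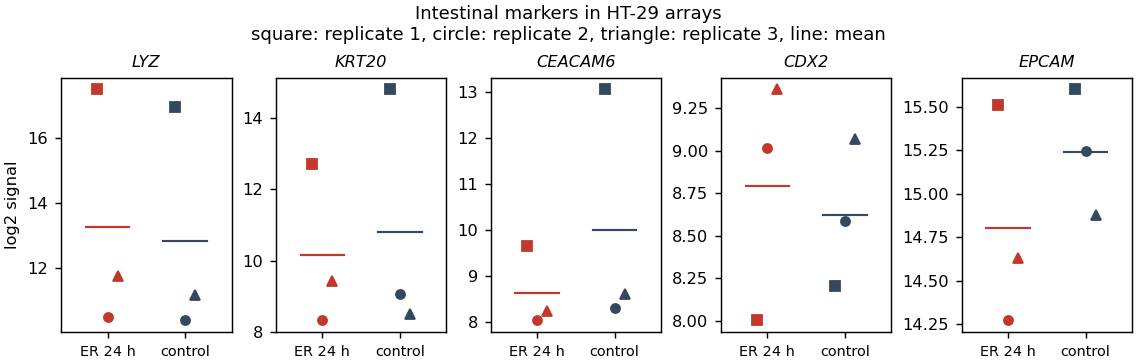
Deposited log2 signal (y axis, own range for each gene) of 5 intestinal markers on the 3 ER 24 h arrays and the 3 control arrays of HT-29 cells, with lines at the group means. LYZ, KRT20 and CEACAM6 are highest on the replicate 1 arrays (squares) of both groups, CDX2 is lowest there, and EPCAM is high on all 6.

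Following the thresholds of the methods, a transcript was counted as differentially expressed (DET) when it moved by 1.2-fold or more, up or down, with p no larger than 0.005 before adjustment. Here p came from limma, fitted on the 9 HT-29 arrays. Of the single-gene transcripts, 143 rose (0.402% of those tested) and 93 fell (0.262%) at 24 h. If no transcript differed, a p of at most 0.005 alone would be reached by about 178 of 35528 transcripts, and by about 679 of all 135750 transcripts, where 512 were DETs. The DETs were thus more than this number among single-gene transcripts, at 236, and fewer than it among all transcripts. After Benjamini-Hochberg adjustment 3 transcripts were called higher (0.00221% of all transcripts) and 0 lower (0.0%), while 5009 transcripts had an unadjusted p under 0.05, 2150 of them lower. The median SE of a change was 0.29. Changes of the 143 higher DETs had a median of 1.19, and 111 of them were at least doubled. Those of the 93 lower DETs had a median of -1.06, with 57 at least halved. A change beyond 2 log2 units was measured for 11 higher DETs and 0 lower DETs.

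The spread of replicates mattered for these calls. All 3 treated arrays lay above all 3 controls for 2079 single-gene transcripts (5.85%) and below them for 1889 (5.32%), and the groups did not overlap for 235 of the 236 DETs. Changes were positive for 52.6% of single-gene transcripts, and the counts in the lists below are to be read against these shares. With replicates 2 and 3 alone, 171 single-gene transcripts passed as higher DETs (0.481%) and 101 as lower DETs (0.284%). Of the 236 DETs, 111 (86 higher and 25 lower) were also DETs there and 230 had p under 0.05, without any adjusted call (0 of 135750, with 6600 at p under 0.05). Of the 67 DETs among the genes named by rule, 39 remained DETs with each of 9 arrays left out in turn. The other 28 had a p between 0.0052 and 0.0251 with some array left out, and where such a gene is described below the arrays are named. This was not computed for genes named after their values were seen. In replicates 2 and 3 alone, 17 of the 67 did not pass, namely IMP4, SRM, E2F8, JDP2, SLC7A6, SESN2, DNAJB11, GINS1, UBTF, RRS1, RRP9, KLF9, HK2, DHCR7, NBR1, DUSP6 and RDH10. Under the methods' t-test 33 of the 67 did not pass, among them ASNS, PHGDH, CARS1, AARS1, SLC6A9, NQO1, FGF19, BNIP3L, SYNPO, DKK1, FAM98A and INSIG1, which passed with each array left out. Just inside the threshold stood CYCS (change of -0.83) and CACYBP (-0.95), and just outside it CCDC185 (0.82) and FAM167A (1.10).

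The 3 adjusted calls were CHAC1, GDF15 and DDIT4. CHAC1 encodes an enzyme that degrades glutathione and is a target of ATF4. Its signal was 11.83, 11.57 and 11.84 in replicates 1, 2 and 3 at 24 h, against 8.17, 8.12 and 8.95 in the controls. The change was 3.34 ± 0.28 (SE, n = 3 each; 10.1-fold; limma adjusted p = 0.00652). It was the largest rise of any named transcript, and the 3 treated arrays differed by less than the controls. GDF15 encodes a secreted stress hormone that acts on appetite. GDF15 had 10.11, 10.86 and 11.31 at 24 h, against 6.90, 7.53 and 7.95 in the controls, a change of 3.30 ± 0.35 (9.86-fold; limma adjusted p = 0.0334). DDIT4, a brake on MTORC1 also known as REDD1, had 13.10, 13.58 and 13.72 at 24 h, against 9.40, 10.77 and 10.37 in the controls, a change of 3.28 ± 0.34 (9.74-fold; limma adjusted p = 0.0334). In all 3 genes the lowest treated array lay more than 2 log2 units above the highest control. With 1 array left out at a time the adjusted p from limma reached 0.098 for CHAC1 and 0.295 for GDF15 and DDIT4, while the smallest changes were 3.19, 3.02 and 2.90. No transcript was called in the fits without control replicate 1, control replicate 2, 24 h replicate 2 or 24 h replicate 3.

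Several of the remaining genes with large rises act in amino acid supply. PCK2 encodes the mitochondrial form of phosphoenolpyruvate carboxykinase. PCK2 had 8.50, 10.04 and 9.57 at 24 h, against 6.35, 6.39 and 6.43 in the controls, and its change of 2.98 ± 0.35 just missed the adjusted threshold (limma adjusted p = 0.0531). ASNS, which makes asparagine, had 15.10, 16.54 and 16.19 at 24 h, against 12.58, 13.31 and 13.60 in the controls (change 2.78 ± 0.40, unadjusted p = 1.7e-05). PHGDH catalyses the first step of serine synthesis. Its signal was 11.88, 13.12 and 13.28 at 24 h, against 9.76, 10.83 and 10.99 in the controls (change 2.23 ± 0.46, unadjusted p = 4.0e-04). With the transcripts of a gene averaged, the change of PHGDH was 1.05 and no DET (unadjusted p = 0.0055). PSAT1, the next enzyme of that pathway, had 17.09, 16.92 and 17.42 at 24 h, against 15.36, 15.64 and 15.79 in the controls (change 1.55 ± 0.23, unadjusted p = 2.6e-05). Replicate 1 was the lowest array of both groups for PCK2, ASNS and PHGDH. For ASNS and PHGDH the difference within the replicate was close to that of the others. These 4 genes were the DETs among 17 amino acid and one-carbon enzymes, whose median change was 0.66, against 0.018 over all single-gene transcripts, and 8 of the 17 lay above every control. Replicates 2 and 3 alone gave 5 DETs and a median of 0.84.

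Among the genes of the ATF4 network and its feedback, 5 of 17 rose, 0 fell, and 11 lay above every control (median change 0.71). CHAC1, described above, is among these 5 and is counted again in the list of cystine and glutathione. ATF4 itself, which is regulated mainly in translation, had 13.49, 13.90 and 14.16 at 24 h, against 12.32, 12.89 and 13.34 in the controls, and at 1.00 ± 0.30 it fell just short of a DET (unadjusted p = 0.0055). The lowest treated array stood only slightly above the highest control. TRIB3, a pseudokinase that feeds back on ATF4, had 10.60, 11.04 and 10.77 at 24 h, against 8.22, 8.23 and 9.02 in the controls, a change of 2.31 ± 0.29 (unadjusted p = 4.7e-06). DDIT3, the factor CHOP, had 7.78, 7.62 and 8.05 at 24 h, against 6.63, 6.71 and 6.68 in the controls, a change of 1.15 ± 0.28. JDP2, a repressor of the AP-1 family, changed by 1.23 ± 0.30. The fifth DET was ATF3 (0.99 ± 0.28), a stress-induced factor named here after its values were seen. DDIT3 was no DET without 24 h replicate 3 (unadjusted p = 0.00836), control replicate 1 (unadjusted p = 0.0057) or control replicate 3 (unadjusted p = 0.00525), nor JDP2 without 24 h replicate 2 (unadjusted p = 0.00959) or control replicate 1 (unadjusted p = 0.00878). In this list the count of DETs dropped to 3 in replicates 2 and 3, to 3 without either 24 h replicate 2 or 24 h replicate 3, and to 2 without control replicate 1, at medians of 0.71, 0.82, 0.72 and 0.77.

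Genes that charge tRNA with amino acids and genes that import amino acids were counted next. Of 17 cytosolic aminoacyl-tRNA synthetases 4 rose and 0 fell, with 6 above and 4 below every control (median 0.36). SARS1, for serine, had 10.82, 11.36 and 11.16 at 24 h, against 9.31, 9.40 and 9.76 in the controls (change 1.62 ± 0.27, unadjusted p = 6.4e-05). CARS1, for cysteine, had 13.23, 13.87 and 13.98 at 24 h, against 11.88, 11.96 and 12.62 in the controls (change 1.54 ± 0.29, unadjusted p = 2.1e-04). AARS1, for alanine, and GARS1, for glycine, changed by 1.22 ± 0.27 and 1.09 ± 0.24, and all 4 were also DETs in replicates 2 and 3. The other 13 synthetases ran from -0.79 (RARS1, for arginine) to 0.83 (YARS1, for tyrosine). Among 15 mitochondrial synthetases 0 passed as DETs and 13 changes were negative (median -0.14). Whether the compartments differ was not tested. Of 21 amino acid transporters 3 rose and 1 fell (median 0.37, and -0.02 in replicates 2 and 3). SLC1A4, a carrier of small neutral amino acids, had 9.09, 9.43 and 9.45 at 24 h, against 7.48, 7.51 and 7.94 in the controls (change 1.68 ± 0.26, unadjusted p = 3.1e-05). SLC6A9, a glycine transporter, changed by 1.41 ± 0.29. SLC43A1, a carrier of large neutral amino acids, changed by 1.82 ± 0.52, but was no DET without 24 h replicate 1 (unadjusted p = 0.0194), 24 h replicate 2 (unadjusted p = 0.00782), 24 h replicate 3 (unadjusted p = 0.008), control replicate 2 (unadjusted p = 0.0251) or control replicate 3 (unadjusted p = 0.0115). SLC7A6, a carrier of basic and large neutral amino acids, fell by 0.88 ± 0.23. Its call was lost without 24 h replicate 1 (unadjusted p = 0.0123), 24 h replicate 2 (unadjusted p = 0.00607), control replicate 1 (unadjusted p = 0.00682), control replicate 2 (unadjusted p = 0.00811) or control replicate 3 (unadjusted p = 0.00738), and without 24 h replicate 3 the list had 2 lower DETs.

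Promoters of some of these genes are shown because ATF4 binds, with a C/EBP partner, a composite element called CARE. The letters TGATGNAA were searched on both strands (other strand TTNCATCA) in RefSeq promoters of assembly GRCh38.p14, each of which starts upstream of an annotated transcription start and ends shortly after it. CARE letters were in 10 of 104 promoters of genes of higher DETs (9.62%) and in 0 of 71 of genes of lower DETs, against 3.78% of 16464 genes tested that had a promoter and 3.62% of all 35116 windows. They were in 6 of 14 promoters of cytosolic synthetases, 6 of 18 of transporters, 4 of 15 of the ATF4 network and 3 of 13 of the amino acid enzymes. A match is a description of letters and not a binding site. The windows below hold the match in capitals and lie at chr15:40953221-40953319 (plus strand), chr7:97872419-97872526 (minus), chr11:3057374-3057475 (minus) and chr16:70289636-70289743 (minus).
CHAC1: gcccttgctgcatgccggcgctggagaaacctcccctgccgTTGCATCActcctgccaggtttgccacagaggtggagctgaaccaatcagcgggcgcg
ASNS: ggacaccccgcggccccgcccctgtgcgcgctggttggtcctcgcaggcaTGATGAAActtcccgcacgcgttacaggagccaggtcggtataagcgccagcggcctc
CARS1: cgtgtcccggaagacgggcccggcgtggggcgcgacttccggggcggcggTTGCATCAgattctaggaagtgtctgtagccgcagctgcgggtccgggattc
AARS1: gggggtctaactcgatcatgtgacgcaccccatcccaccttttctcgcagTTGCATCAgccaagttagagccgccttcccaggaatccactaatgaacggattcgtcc

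Among genes of the axis that ER acts on, few passed. SLC7A11, the target, had 16.63, 12.80 and 14.38 in replicates 1, 2 and 3 at 24 h, against 12.94, 12.99 and 11.93 in the controls. The groups overlapped, since replicate 2 was below 2 of the controls, and the change of 1.98 ± 1.07 was no DET (unadjusted p = 0.088). It was 1.13 ± 0.53 in replicates 2 and 3 (unadjusted p = 0.058), 0.97 without 24 h replicate 1 and 2.89 without 24 h replicate 2, and SLC7A11 was no DET in any of these fits. GPX4, the lipid peroxide reductase, had 11.60, 12.01 and 12.30 at 24 h, against 11.11, 10.84 and 11.41 in the controls (change 0.85 ± 0.31, unadjusted p = 0.019). HMOX1, which degrades heme, had 6.95, 8.63 and 8.97 at 24 h, against 6.52, 6.99 and 7.49 in the controls (change 1.19 ± 0.50, unadjusted p = 0.035), with replicate 1 within the range of the controls. None of these 3 genes passed with all 3 replicates. HMOX1 did pass in replicates 2 and 3 alone (change 1.56 ± 0.40, unadjusted p = 0.0026) and without 24 h replicate 1 (change 1.801), whereas SLC7A11 and GPX4 did not. In the list of 20 genes of cystine and glutathione 17 changes were positive (median 0.37), yet only CHAC1 rose and only LANCL2 fell. LANCL2 encodes a glutathione-binding protein of the lanthionine synthetase family. Its signal was 9.34, 9.07 and 9.33 at 24 h, against 10.79, 10.32 and 10.47 in the controls (change -1.28 ± 0.26, unadjusted p = 3.7e-04). Of 23 genes of NRF2 and its redox targets only NQO1, a quinone reductase, rose. NQO1 had 15.50, 15.83 and 15.97 at 24 h, against 14.82, 13.98 and 14.13 in the controls (change 1.45 ± 0.29, unadjusted p = 3.0e-04). HMOX1, also in the list of iron and heme, was a further DET here in replicates 2 and 3. Among the 21 genes of iron and heme 0 passed with all replicates (median 0.23), and only HMOX1 in replicates 2 and 3 (median 0.23). FTL, the ferritin light chain, had a change of 0.88 ± 0.30. In the list of lipid peroxidation and its repair 0 of 20 passed (median -0.08), with DHODH, a mitochondrial enzyme of pyrimidine synthesis, at -0.85 ± 0.25 (unadjusted p = 0.0061). ALOX15, ABCB6 and ABCC1 had changes of 0.23 ± 0.33, 0.38 ± 0.28 and -0.15 ± 0.24.

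**Figure D2:**
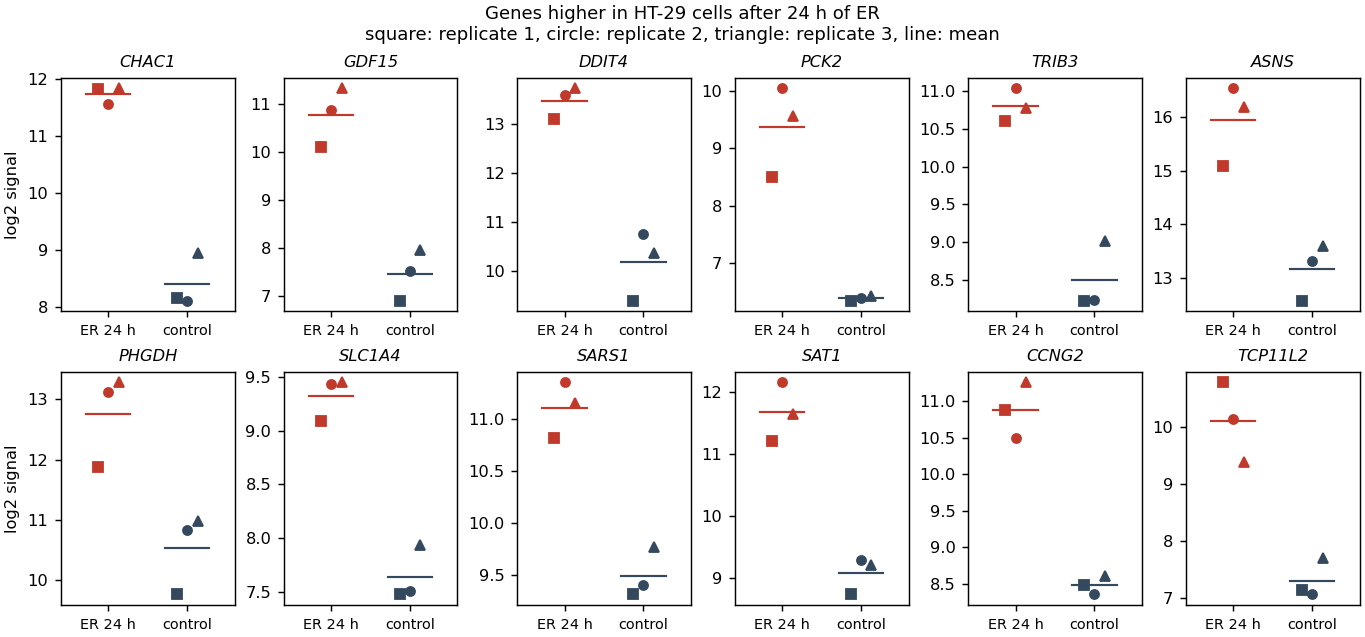
Deposited log2 signal (y axis, own range for each gene) of 12 genes that were higher DETs, on the 3 ER 24 h arrays and the 3 control arrays of HT-29 cells, with lines at the group means. The groups do not overlap in any panel, as for 235 of the 236 DETs, and genes named for size were required not to overlap. Replicate 1 (squares) is the lowest array of both groups in every panel except those of CHAC1, CCNG2 and TCP11L2.

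Genes linked to FOXO factors and quiescence had a median of 0.79, the largest of the 33 lists with all 3 replicates, and 18 of 19 changes were positive. In replicates 2 and 3 their median was 0.69, below that of the amino acid enzymes (0.84) and the ATF4 network (0.71). Members of all 33 lists were chosen with earlier results of these data known. Medians and ranks of lists are thus descriptions and not tests. Of the 19 genes 7 rose, 0 fell, and 13 lay above every control. CCNG2, an unusual cyclin that opposes cell cycle progression, had 10.88, 10.49 and 11.26 at 24 h, against 8.49, 8.36 and 8.61 in the controls (change 2.39 ± 0.39, unadjusted p = 5.6e-05). Over the 22 alternative settings its change ran from 1.64 to 2.58, and it was a DET in each. TCP11L2 had 10.78, 10.14 and 9.38 at 24 h, against 7.14, 7.07 and 7.71 in the controls (change 2.79 ± 0.33, limma adjusted p = 0.0531). Unlike ASNS or PCK2, TCP11L2 was highest in replicate 1 of the treated arrays. KLF9, a zinc-finger factor, and YPEL3, which belongs to a family tied to growth arrest, changed by 1.33 ± 0.26 and 1.58 ± 0.30. The other DETs were PNRC1 (2.20 ± 0.52), a coregulator of nuclear receptors, and 2 genes named after their values were seen, YPEL5 (1.55 ± 0.31) and BCL6 (0.79 ± 0.22), a repressor that FOXO factors induce. PNRC1 was no DET without 24 h replicate 2 (unadjusted p = 0.00643), 24 h replicate 3 (unadjusted p = 0.00561) or control replicate 1 (unadjusted p = 0.00701). In replicates 2 and 3 the list had 5 DETs. Under every alternative run the count stayed between 5 and 7.

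Brakes on MTORC1, beyond DDIT4, had 1 further DET among 15 genes (median 0.25). SESN2, a sestrin that senses leucine, had 10.02, 10.17 and 10.005 at 24 h, against 8.63, 8.93 and 9.38 in the controls (change 1.08 ± 0.25). Its call was lost without control replicate 1 (unadjusted p = 0.00603) and in replicates 2 and 3. SAT1 led the polyamine enzymes. It acetylates spermidine and spermine for export and breakdown, and had 11.21, 12.16 and 11.63 at 24 h, against 8.73, 9.29 and 9.21 in the controls (change 2.59 ± 0.30, limma adjusted p = 0.0531). SRM, which makes spermidine, went the other way, with 10.33, 11.82 and 11.67 at 24 h, against 12.65, 12.43 and 12.69 in the controls (change -1.32 ± 0.37). The change of SRM in replicates 2 and 3 was -0.82 (unadjusted p = 0.037), and without 24 h replicate 1 it was -0.85. SRM was no DET without 24 h replicate 1 (unadjusted p = 0.0142), control replicate 1 (unadjusted p = 0.0133), control replicate 2 (unadjusted p = 0.00837) or control replicate 3 (unadjusted p = 0.0144). The list of 13 had a median of 0.10. Among 10 secreted stress hormones FGF19, a bile-acid-responsive growth factor, rose beside GDF15, with 8.07, 8.88 and 8.93 at 24 h, against 7.45, 7.05 and 7.26 in the controls (change 1.38 ± 0.28, unadjusted p = 3.4e-04).

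On the lower side, genes for entry into S phase and for DNA replication mostly had negative changes. Of 36 such genes 6 fell and 0 rose, 34 changes were negative, and 18 lay below every control (median -0.59). Over all single-gene transcripts 0.262% were lower DETs, 5.32% lay below every control and 52.6% of changes were positive. CDC25A is the phosphatase that activates CDK2 at the start of S phase. It had 9.29, 9.62 and 9.82 at 24 h, against 11.09, 11.11 and 11.69 in the controls, a change of -1.72 ± 0.27 (3.3-fold lower, unadjusted p = 3.6e-05). FEN1, the flap endonuclease that processes Okazaki fragments, had 13.01, 13.21 and 13.28 at 24 h, against 13.95, 14.18 and 14.46 in the controls (change -1.03 ± 0.23, unadjusted p = 6.9e-04). No treated array of either gene reached the controls. MCM10 and GINS1, parts of the replisome, changed by -1.38 ± 0.34 and -1.10 ± 0.26. UHRF1, which carries DNA methylation through replication, changed by -1.03 ± 0.25. The sixth DET was ORC6 (-1.14 ± 0.32), of the origin recognition complex, named after its values were seen. MCM10 was no DET without 24 h replicate 2 (unadjusted p = 0.00661) or control replicate 2 (unadjusted p = 0.00919). GINS1 was none without 24 h replicate 1 (unadjusted p = 0.00645), 24 h replicate 2 (unadjusted p = 0.00528) or control replicate 1 (unadjusted p = 0.00713), nor UHRF1 without 24 h replicate 1 (unadjusted p = 0.00732) or control replicate 3 (unadjusted p = 0.00855). Replicates 2 and 3 alone gave 5 lower DETs and a median of -0.50, and the count was 3 without 24 h replicate 2 at a median of -0.55. In the difference of replicate 1 alone 35 of 36 were negative, against 27 in replicate 2 and 31 in replicate 3. E2F8, a repressor of the E2F family outside this list, changed by -1.28 ± 0.30, with the call lost without 24 h replicate 2 (unadjusted p = 0.00685), control replicate 2 (unadjusted p = 0.00577) or control replicate 3 (unadjusted p = 0.00526). The genes of mitosis (25, median -0.34) and the replication-dependent histones (23, median 0.01) had 0 DETs.

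The E2F factors drive many S-phase genes, so their promoters were searched for TTTCCCGC, TTTCGCGC, TTTGCCGC and TTTGGCGC on both strands. The letters were in 21 of 31 promoters of the S-phase list, in 9 of 71 promoters of genes of lower DETs (12.7%) and in 2 of 104 of genes of higher DETs (1.92%), against 4.94% of genes tested and 3.31% of all windows. CDC25A (chr3:48188404-48188511, minus strand) and GINS1 (chr20:25407628-25407722, plus strand) each held 1 match, shown in capitals.
CDC25A: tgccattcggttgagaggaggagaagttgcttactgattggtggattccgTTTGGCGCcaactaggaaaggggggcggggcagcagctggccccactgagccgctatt
GINS1: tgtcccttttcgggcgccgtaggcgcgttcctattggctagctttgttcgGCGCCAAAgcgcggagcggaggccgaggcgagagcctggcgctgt

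Genes of ribosome biogenesis also mostly had negative changes. Of 31 genes 30 changes were negative, 19 lay below every control, 4 fell and 0 rose (median -0.64). MRTO4, which assembles the stalk of the large subunit, had 10.19, 10.22 and 9.87 at 24 h, against 11.20, 11.31 and 11.49 in the controls (change -1.24 ± 0.28, unadjusted p = 8.1e-04). UBTF, a factor of RNA polymerase I, had 11.98, 12.20 and 12.40 at 24 h, against 13.11, 13.10 and 13.20 in the controls (change -0.94 ± 0.22). The 3 controls of UBTF differed by less than the treated arrays. RRP9 and RRS1, which process and assemble ribosomal RNA precursors, changed by -1.10 ± 0.32 and -0.82 ± 0.23. The calls of UBTF were lost without 24 h replicate 1 (unadjusted p = 0.00662) or control replicate 3 (unadjusted p = 0.00523). Those of RRP9 were lost without 24 h replicate 1 (unadjusted p = 0.025), 24 h replicate 2 (unadjusted p = 0.00589), 4 h replicate 2 (unadjusted p = 0.00662), control replicate 1 (unadjusted p = 0.0155), control replicate 2 (unadjusted p = 0.006) or control replicate 3 (unadjusted p = 0.0217). Those of RRS1 were lost without 24 h replicate 1 (unadjusted p = 0.0191), 24 h replicate 2 (unadjusted p = 0.0131) or control replicates 1, 2 and 3 (unadjusted p = 0.0125, 0.00671 and 0.0161). The count of the list was 2 in replicates 2 and 3, at a median of -0.57, and 1 without 24 h replicate 1 or without control replicate 3, at medians of -0.47 and -0.59. It was 2 without 24 h replicate 2 or without control replicate 1, at medians of -0.66 and -0.69. Replicates 1, 2 and 3 had negative differences for 27, 26 and 29 of the 31 genes.

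Outside the list, 3 further genes were named for the size of their fall and have roles in the nucleolus or in ribosome assembly. IMP4, of the small-subunit processome, had 9.89, 10.53 and 10.68 at 24 h, against 11.49, 11.46 and 12.16 in the controls (change -1.34 ± 0.31), and was no DET without 24 h replicate 1 (unadjusted p = 0.00531) or control replicate 3 (unadjusted p = 0.00607). LTV1, a factor of small-subunit export, changed by -1.40 ± 0.40. Its call was lost without 24 h replicate 2 (unadjusted p = 0.0249), 24 h replicate 3 (unadjusted p = 0.0175), 4 h replicate 3 (unadjusted p = 0.00686), control replicate 1 (unadjusted p = 0.0115) or control replicate 2 (unadjusted p = 0.0249). GPATCH4, a nucleolar protein, changed by -1.29 ± 0.34, with the call lost without 24 h replicate 2 (unadjusted p = 0.0137), 24 h replicate 3 (unadjusted p = 0.011), control replicate 2 (unadjusted p = 0.0124) or control replicate 3 (unadjusted p = 0.00774). MYC, the factor best known for driving ribosome production, had a change of -0.04, and 0 of 13 genes of the MYC network passed (median 0.01). In replicates 2 and 3 MLXIPL, a glucose-responsive factor, passed in that network (change 1.34, unadjusted p = 0.0024), against 1.15 with all replicates (unadjusted p = 0.019).

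MYC and its relatives bind the E-box CACGTG, which reads the same on both strands. E-box letters were in 14 of 27 promoters of the ribosome list, in 18 of 71 promoters of genes of lower DETs (25.4%) and in 7 of 104 of genes of higher DETs (6.73%), against 10.3% of genes tested and 7.26% of all windows. Lists with at most 1 lower DET held them too. They were in 7 of 18 promoters of amino acid transporters (1 lower DET), 4 of 13 of the amino acid enzymes (0) and 7 of 22 of glycolytic genes (1, HK2). FOXO-linked genes had them in 1 of 19 promoters and NRF2 targets in 0 of 20. MRTO4 (chr1:19251769-19251854, plus strand) and IMP4 (chr2:130342647-130342749, plus strand) show it in capitals.
MRTO4: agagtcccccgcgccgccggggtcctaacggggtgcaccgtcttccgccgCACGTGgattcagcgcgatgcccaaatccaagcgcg
IMP4: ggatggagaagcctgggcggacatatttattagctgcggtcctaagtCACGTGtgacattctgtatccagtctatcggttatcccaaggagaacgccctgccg

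Cytosolic and mitochondrial heat shock proteins had a median of -0.67, the lowest of the 33 lists with all 3 replicates, with 18 of 21 changes negative and 10 below every control, yet only 1 fell. DNAJA1, a co-chaperone of HSP70, had 13.09, 12.64 and 13.38 at 24 h, against 14.33, 14.70 and 14.56 in the controls (change -1.50 ± 0.30, unadjusted p = 3.5e-04). DNAJB1, another such co-chaperone, had 13.34, 14.71 and 14.35 at 24 h, against 14.87, 15.30 and 15.62 in the controls (change -1.13 ± 0.37, unadjusted p = 0.01). Its groups did not overlap, although it was no DET. The transcript with the largest fall of all DETs was annotated to HSPA8P1, a pseudogene of the chaperone HSPA8. HSPA8P1 had 9.17, 9.52 and 9.36 at 24 h, against 11.12, 11.01 and 11.27 in the controls (change -1.79 ± 0.26, unadjusted p = 2.1e-05), and signal from HSPA8 itself cannot be told apart from it. In replicates 2 and 3 the heat shock list had 4 lower DETs and a median of -0.56, where ribosome biogenesis had -0.57, and it had 2 without 24 h replicate 1, 24 h replicate 2 or 4 h replicate 1. The list of IRE1, ATF6 and chaperones of the endoplasmic reticulum had a median of -0.15 over 22 genes. Only DNAJB11, such a chaperone, fell, with 11.57, 11.49 and 11.68 at 24 h, against 12.68, 12.49 and 12.26 in the controls (change -0.89 ± 0.24). With the transcripts of a gene averaged, the change of DNAJB11 was -0.32 (unadjusted p = 0.19), and in replicates 2 and 3 it was no DET. Its call was lost without 24 h replicates 1, 2 or 3 (unadjusted p = 0.00973, 0.0124 and 0.00712), control replicate 1 (unadjusted p = 0.0156) or control replicate 2 (unadjusted p = 0.0106).

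The heat shock element, searched as GAANNTTCNNGAA and TTCNNGAANNTTC, was in 6 of 19 promoters of the heat shock list and in 2 of 71 promoters of genes of lower DETs (DNAJA1 and PGAM5), against 0.553% of genes tested and 0.49% of all windows. It was in 1 of 104 promoters of genes of higher DETs (MAP2, 0.96%), and counts this small do not separate the groups. DNAJA1 (chr9:33025226-33025322, plus strand) is shown with the match in capitals.
DNAJA1: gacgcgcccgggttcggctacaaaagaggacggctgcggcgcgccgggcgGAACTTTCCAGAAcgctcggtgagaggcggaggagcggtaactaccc

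Cholesterol synthesis was described in the same way, with 3 of 20 genes lower, 0 higher, 16 changes negative and 9 below every control (median -0.62). INSIG1, which retains the sterol sensor in the endoplasmic reticulum and is itself sterol-regulated, had 9.33, 8.73 and 8.73 at 24 h, against 10.36, 10.40 and 9.98 in the controls (change -1.32 ± 0.25, unadjusted p = 1.9e-04). IDI1, an isomerase of the mevalonate pathway, had 11.25, 10.01 and 10.90 at 24 h, against 12.26, 11.95 and 11.91 in the controls (change -1.32 ± 0.31). DHCR7, the last enzyme of the pathway, changed by -1.03 ± 0.27. IDI1 was no DET without 24 h replicate 2 (unadjusted p = 0.00529) or control replicate 1 (unadjusted p = 0.00673), nor DHCR7 without 24 h replicate 2 (unadjusted p = 0.0127), 24 h replicate 3 (unadjusted p = 0.00621), control replicate 1 (unadjusted p = 0.00955) or control replicate 3 (unadjusted p = 0.00979). The count was 4 in replicates 2 and 3, at a median of -0.54, 2 without 24 h replicate 3 or control replicate 3, 1 without 24 h replicate 2 or control replicate 1, and 5 without 4 h replicate 1. Under the methods' t-test it was 0.

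**Figure D3:**
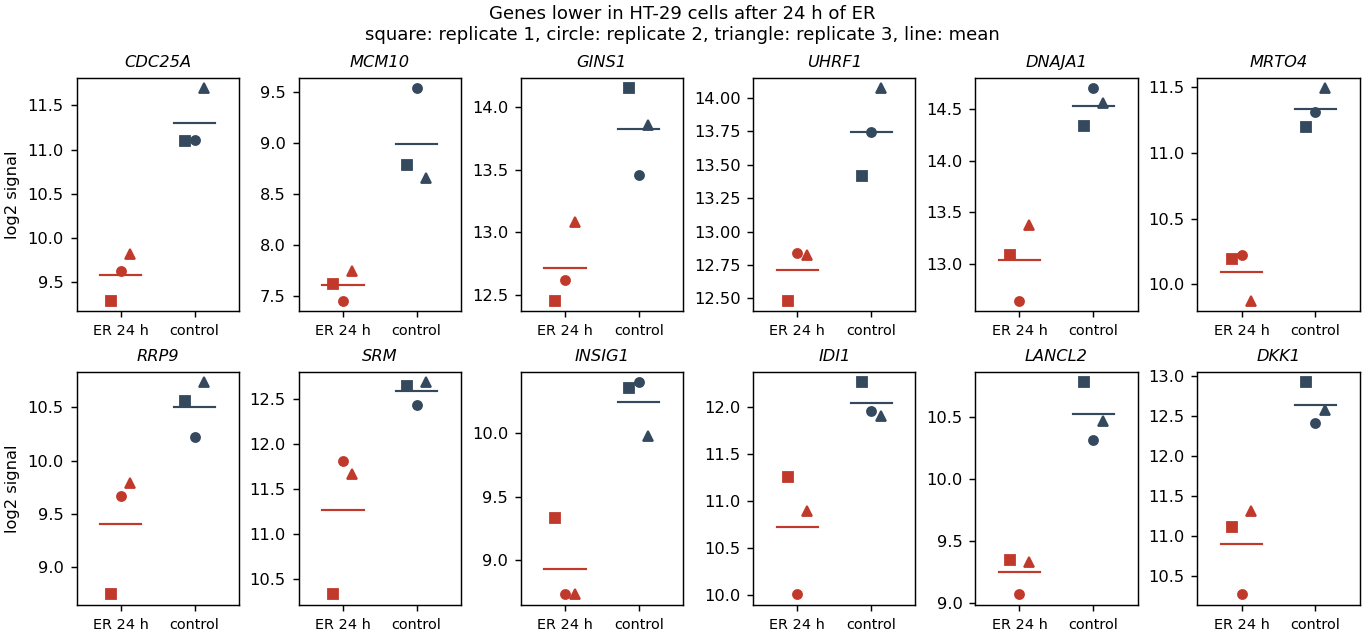
Deposited log2 signal (y axis, own range for each gene) of 12 genes that were lower DETs, on the 3 ER 24 h arrays and the 3 control arrays of HT-29 cells, with lines at the group means. The groups do not overlap in any panel, as for 235 of the 236 DETs, and genes named for size were required not to overlap. For SRM and RRP9 the treated array of replicate 1 (square) lies well below the other treated arrays.

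Smaller sets of genes changed in the other lists. EGR1, an immediate early factor, had 13.31, 13.83 and 13.87 at 24 h, against 12.19, 11.86 and 12.27 in the controls (change 1.56 ± 0.30). DUSP6, a phosphatase of ERK induced by its signalling, changed by 1.12 ± 0.27, and these were the 2 DETs of 21 immediate early genes (median 0.39). DUSP6 was no DET without 24 h replicate 2 (unadjusted p = 0.00656), 24 h replicate 3 (unadjusted p = 0.00803), control replicate 1 (unadjusted p = 0.00904) or control replicate 2 (unadjusted p = 0.0052). ID1, a target of BMP signalling, had 11.84, 12.58 and 12.53 at 24 h, against 10.25, 10.33 and 10.87 in the controls (change 1.83 ± 0.34). HES1, a target of Notch, changed by 1.21 ± 0.29, without a call when 24 h replicate 2 (unadjusted p = 0.008), control replicate 2 (unadjusted p = 0.00833) or control replicate 3 (unadjusted p = 0.0055) was left out. DKK1, a secreted inhibitor of Wnt, had 11.12, 10.28 and 11.31 at 24 h, against 12.92, 12.41 and 12.57 in the controls (change -1.73 ± 0.35, unadjusted p = 3.6e-04), and -1.04 with the transcripts of a gene averaged, still a DET. It was the only DET of 12 Wnt targets (median 0.07). HK2, a hexokinase, had 8.62, 8.73 and 8.96 at 24 h, against 9.997, 9.62 and 9.95 in the controls (change -1.08 ± 0.23), while no other of 25 glycolytic genes passed (median -0.06). In replicates 2 and 3 HK2 was no DET, and the glycolytic list had 0 DETs and a median of 0.19. Differences were negative for 20, 6 and 11 of the 25 genes in replicates 1, 2 and 3. BNIP3L, a mitophagy receptor, changed by 1.52 ± 0.32 and was the only DET of 19 genes of hypoxia and mitophagy (median -0.0004). NBR1, an autophagy receptor, changed by 1.08 ± 0.26 and was the only DET of 25 genes of autophagy and the lysosome (median 0.33), but not without 24 h replicate 3 (unadjusted p = 0.00909), control replicate 1 (unadjusted p = 0.00794) or control replicate 3 (unadjusted p = 0.00636). NR1D1, a repressor of the circadian clock, had 12.04, 14.36 and 13.67 at 24 h, against 10.997, 11.60 and 11.83 in the controls (change 1.88 ± 0.53). Its call was lost without 24 h replicate 2 (unadjusted p = 0.0211), 24 h replicate 3 (unadjusted p = 0.017), 4 h replicate 2 (unadjusted p = 0.00594) or control replicates 1, 2 and 3 (unadjusted p = 0.0195, 0.0097 and 0.00631). Interferon response (25, median 0.26), fatty acid oxidation (19, median 0.27) and SRF and YAP targets (17, median 0.10) had 0 DETs. Of 18 p53 targets only SESN2 rose (median 0.09), with its call lost without control replicate 1 and in replicates 2 and 3. Some of these lists held other DETs in replicates 2 and 3, named after their values were seen. The hypoxia list then had 2, BNIP3L and NDRG1, and the autophagy list 2, MAP1LC3B and TFE3 in place of NBR1. The immediate early list had EGR1 and DUSP4, and the list of BMP and Notch had ID3 beside ID1 and HES1.

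**Figure D4:**
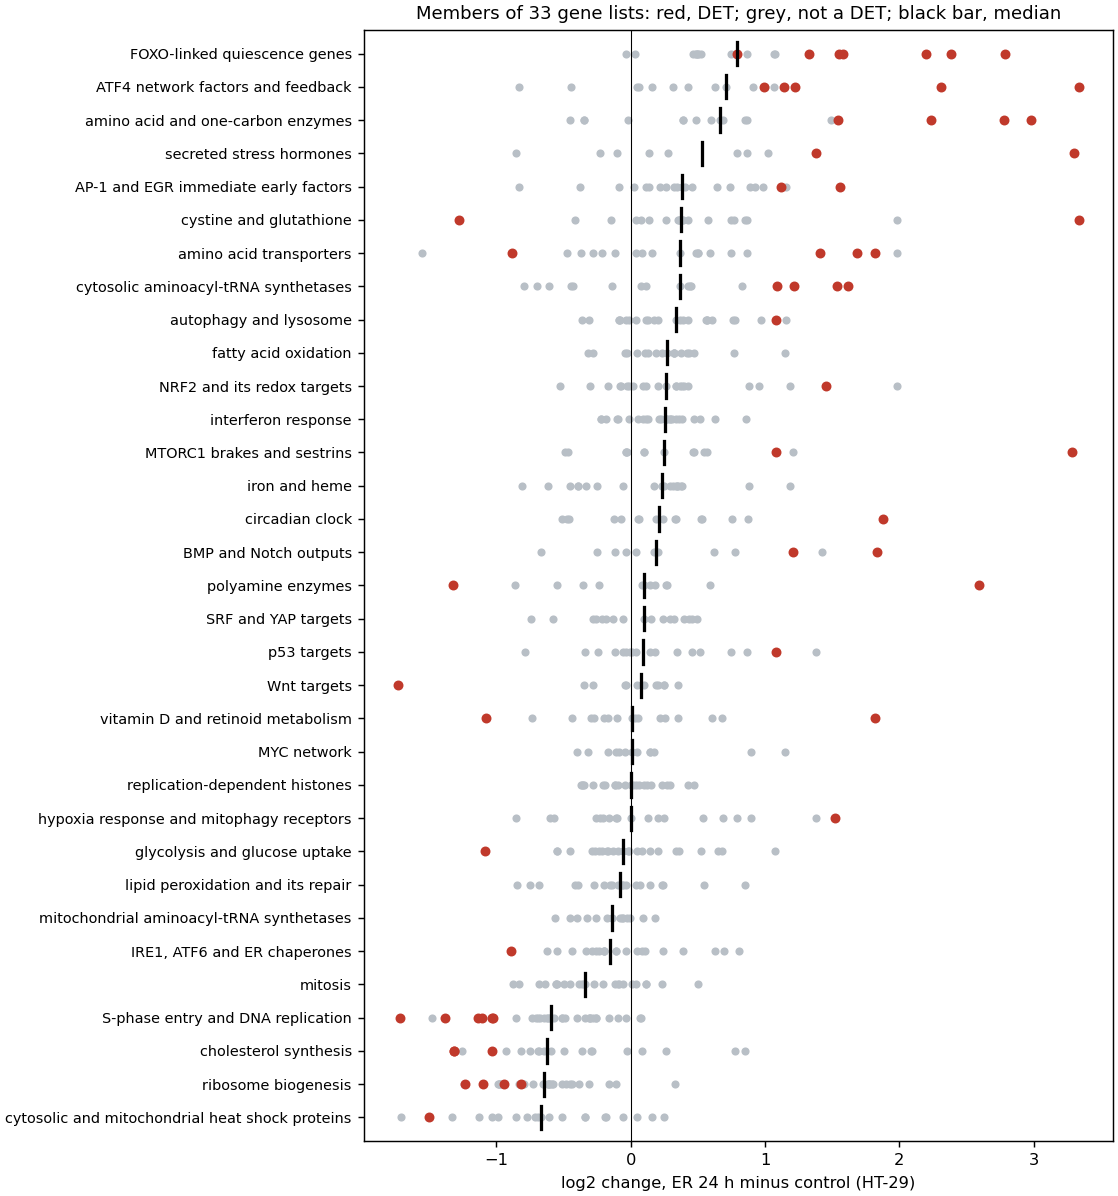
Log2 change, ER 24 h minus control in HT-29 cells (x axis), of every measured member of 33 gene lists (y axis, ordered by median), with DETs in red, other members in grey and the median as a black bar. With all 3 replicates FOXO-linked quiescence genes have the highest median (0.79) and cytosolic and mitochondrial heat shock proteins the lowest (-0.67). Members were chosen with earlier results of these data known, so that the order is a description and not a test.

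Further genes were named mostly for the size of their change. FYN was named as a gene of the study's primers, and CYP24A1 and RDH10 as DETs of their list. KDM5B, a histone demethylase, had 13.55, 14.32 and 13.83 at 24 h, against 12.27, 11.80 and 12.03 in the controls (change 1.87 ± 0.32). SYNPO, an actin-binding protein, had 7.18, 8.76 and 8.42 at 24 h, against 5.82, 6.21 and 6.67 in the controls (change 1.89 ± 0.39). FYN, a kinase of the SRC family, had 9.98, 10.48 and 10.51 at 24 h, against 8.45, 8.39 and 9.09 in the controls (change 1.68 ± 0.26). All 3 were also DETs in replicates 2 and 3. MIR3189, a microRNA gene inside GDF15, changed by 1.89 ± 0.27, and its signal cannot be told apart from that of its host. Lower genes of this kind were FAM98A (-1.45 ± 0.29), PIGW (-1.39 ± 0.32), of GPI anchor synthesis, and ATAD3B (-1.31 ± 0.24), a mitochondrial ATPase. PIGW was no DET without 24 h replicate 2 (unadjusted p = 0.00567) or control replicate 1 (unadjusted p = 0.00546). CYP24A1, which inactivates vitamin D, had 14.28, 14.50 and 14.55 at 24 h, against 11.66, 13.10 and 13.11 in the controls (change 1.82 ± 0.49), and RDH10, a retinol dehydrogenase, changed by -1.08 ± 0.25, whereas their list of 17 had a median of 0.01. The call of CYP24A1 was lost without 24 h replicates 1, 2 or 3 (unadjusted p = 0.00644, 0.0103 and 0.0118) or control replicate 1 (unadjusted p = 0.0185), and that of RDH10 without 24 h replicate 2 (unadjusted p = 0.00571) or control replicate 3 (unadjusted p = 0.00651). In replicates 2 and 3 RDH10 was no DET either.

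DETs were also chosen in replicates 2 and 3 alone and then looked up in replicate 1, which that choice did not use. Of 171 higher DETs chosen in that way, 149 (87.1%) were higher in replicate 1 too, where 46.9% of all single-gene transcripts were higher, with a median change of 1.35 in replicates 2 and 3 and 0.76 in replicate 1. Of 101 lower DETs, 56 (55.4%) were lower in replicate 1, close to the 53.1% of all single-gene transcripts, and the median change of -1.41 in replicates 2 and 3 stood at -0.15 in replicate 1. The share of lower DETs was thus near the background. The other replicates behaved differently, as 53 of 73 higher (72.6%) and 29 of 32 lower DETs (90.6%) kept their direction in replicate 2 when it was left out, and 46 of 50 higher (92%) and 11 of 11 lower DETs (100%) kept it in replicate 3, where 57.3%, 42.7%, 51.5% and 48.5% of all single-gene transcripts went that way. These lookups of replicates 2 and 3 were added after seeing the data, and genes are not independent of each other. Whether the intestinal markers of replicate 1 bear on the difference was not tested.

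**Figure D5:**
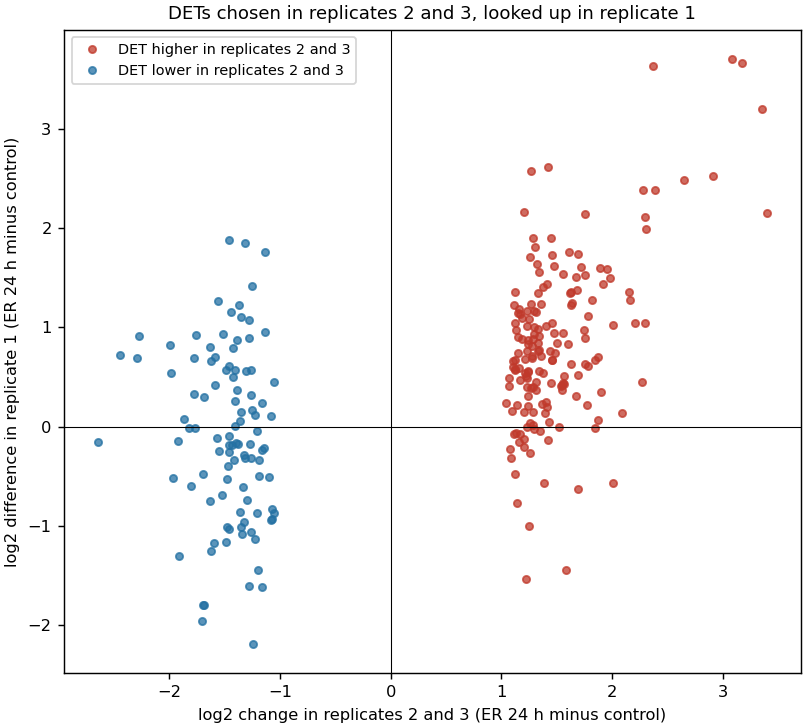
Each point is a single-gene transcript that was a DET in replicates 2 and 3, with its log2 change there (x axis) and the log2 difference, ER 24 h minus control, in replicate 1 (y axis). Of the higher DETs (red) 87.1% lie above 0 in replicate 1, and of the lower DETs (blue) 55.4% lie below 0.

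HCT116 cells under the same treatment, with controls of their own, were used to ask where HT-29 cells differed. The difference of the 2 changes was fitted on all 18 arrays, and 0 of 135750 transcripts (0.0%) passed the adjusted threshold, with 4885 at p under 0.05 and a lowest limma adjusted p of 1.0. The median SE of this difference was 0.39, so that differences of this size were not detectable. CHAC1 changed by 3.34 in HT-29 cells, against 2.90 in HCT116 cells, a difference of 0.44 ± 0.39. Among the genes named, the smallest p of a difference was that of FAP (0.97 in HT-29 cells, against -0.24 in HCT116 cells; difference 1.21 ± 0.41, unadjusted p = 0.0081). FAM98A followed, with -1.45 in HT-29 cells, against -0.46 in HCT116 cells (difference -0.99 ± 0.35, unadjusted p = 0.011). TRIB3 changed by 2.31 in HT-29 cells, against 1.37 in HCT116 cells (difference 0.94 ± 0.40, unadjusted p = 0.031). No gene can be called particular to HT-29 cells from these arrays.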

How the data were processed

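Total RNA was hybridised to Affymetrix arrays that cover the whole transcriptome. The values used are normalized log2 signals that the authors deposited for each transcript on each array. Their methods state RMA normalization (oligo) of each cell line on its own, mean summarization and log2 transformation, and a second software package of the maker was also used. Which of them gave these values was not found in the paper. The lowest value was 2.28 and the highest 19.92, although a 16-bit scanner cannot exceed 16 in log2 units. Scale is thus uncertain, and with it every fold, computed as 2 to the power of the change. No raw signals were used.

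Of 138745 features, 2995 controls were left out. Gene names are those of the platform's annotation, and where a gene had several transcripts, as 1425 did, the one with the highest mean over 18 arrays was used. limma 3.58.1 (lmFit and eBayes, R 4.3.3) was fitted on the 9 HT-29 arrays with 1 mean per group, with p adjusted by Benjamini-Hochberg over all 135750 transcripts. The HCT116 comparison is the interaction in a fit of 18 arrays. Named genes are the 15 higher and 15 lower DETs with the largest change whose groups do not overlap and whose sign holds in all same-numbered pairs, every adjusted call, up to 4 DETs a list (the 2 members of smallest p where it has fewer than 2), and genes of the study's primers. The 33 lists hold 702 entries, 645 of them measured. Members and lists were chosen with earlier results of these data known. Promoter windows come from RefSeq (GRCh38.p14), which held 16464 of the 33578 genes. Precision is limited by the 3 arrays per group, and an exact permutation test of 3 against 3 cannot go below 0.10. The limma step was tested on simulated data. Alternatives were Student's t-test (without the permutations of the methods), other sets of arrays, a replicate block, filters, gene means, quantile normalization, median centring, other limma settings, array weights, a fold of 1.5 and leaving out each array. Figures were made with matplotlib 3.10.9 under Python 3.11.15 (pandas 2.3.3, numpy 2.4.6), and files were read with the R package data.table, version 1.17.8. RT-PCR and viability data were not analysed here.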

Additional observations from a re-analysis of the deposited data

Results flagged for a closer look

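Changes at 24 h were set against those at 4 h of ER, both relative to the same HT-29 controls, which leaves the difference between 24 h and 4 h arrays as the tested quantity. For 15 of the 105 genes named by rule this difference passed Benjamini-Hochberg adjustment in limma over all transcripts, with 3 arrays per time. How many of all transcripts passed is not given here, so the 15 cannot be set against a background share. Many genes were named for their 24 h values, and the same 24 h arrays enter this difference. It was not fitted in replicates 2 and 3 alone. The 24 h minus 4 h difference was 3.78 for CHAC1, 3.95 for GDF15 and 4.80 for DDIT4, whose changes from control were 3.34, 3.30 and 3.28 at 24 h and -0.44, -0.65 and -1.51 at 4 h. It was 3.24 for PCK2, 3.30 for CCNG2, 2.92 for SAT1, 2.64 for TCP11L2 and 2.38 for TRIB3. SLC1A4, BNIP3L, MIR3189 and PSAT1 had differences of 2.33, 2.31, 2.0998 and 1.76. DKK1, the Wnt inhibitor, had a difference of -3.77, with a change from control of -1.73 at 24 h and 2.04 at 4 h. F3, encoding tissue factor, had a difference of -2.93, with -0.74 at 24 h (no DET) and 2.19 at 4 h. CDC25A had a difference of -2.23, with -1.72 at 24 h and 0.51 at 4 h.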

How the results depend on the processing

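Over all transcripts 316 DETs were higher and 196 lower, with 3 adjusted calls higher and 0 lower. Among 2307 values of 105 named genes, 2072 kept their call, 175 lost it, 53 gained it, 7 moved and 0 reversed, and 25 of 67 DETs kept it under all 22 settings. All 18 arrays in 1 fit gave 578 higher and 348 lower DETs with 14 and 2 adjusted calls, and array weights gave 549 and 343 with 9 and 1. Gene means gave 144 and 98 DETs with 7 adjusted calls higher, single-gene transcripts alone 145 and 98 with 7, and signals at or above the median 186 and 110, each from fewer features tested. The 6 arrays compared alone gave 1 adjusted call higher, the t-test 0 (with 33 of the 67 named DETs lost), and replicates 2 and 3 alone 0, with 320 lower DETs there. With 1 array left out, higher DETs ran from 204 (without control replicate 1) to 447, lower DETs from 114 (without control replicate 3; 123 without 24 h replicate 2) to 230, and adjusted calls higher from 0 (without control replicate 1, control replicate 2, 24 h replicate 2 or 24 h replicate 3) to 6 (without 24 h replicate 1), with 1 without control replicate 3, 4 h replicate 2 or 4 h replicate 3. The cause of these shifts was not tested.

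The share of higher DETs of replicates 2 and 3 that kept direction in replicate 1 was 71.9% over all transcripts, 80.3% after quantile normalization, 71.8% with only the arrays compared, 52.0% under the t-test and 71.8% to 91.8% with 1 array left out. For lower DETs it was 37.2% over all transcripts, 66.7% under the t-test and 26.7% to 57.0% with 1 array left out. Left out in place of replicate 1, replicate 2 gave 72.6% and 90.6%, and replicate 3 gave 92% and 100%.

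The replicate number was not taken to pair the arrays, since the labels do not tie it to an experiment and not every correlation of deviations from the group means was over 0.1. For replicates 1, 2 and 3 these were 0.105, -0.063 and 0.0805 between 24 h and control arrays, 0.118, -0.148 and 0.173 between 4 h and control arrays, and 0.500, 0.198 and 0.0818 between 24 h and 4 h arrays, although replicate 1 of both groups stood apart in intestinal markers. With the replicate number as a block 430 DETs were higher and 230 lower, with 6 adjusted calls higher and 0 lower, all 67 named DETs kept their call, and the shares in replicate 1 were 87.4% and 57.3%. Precision is limited by 3 arrays per group, and signal over background was not measured.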
